A study of Mus musculus with 899 samples.

Results

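Plasma miRNA of C57Bl/6 mice was compared between irradiated and sham treated animals at the month 1 bleed, in 100 of the 899 plasma samples of the series. These samples were chosen by their labels alone, as strain C57Bl/6 at time point M1. They comprised 68 irradiated samples (36 female and 32 male) and 32 sham samples (16 female and 16 male), 1 per mouse. The irradiated mice had received a single X-ray dose to the whole thorax with the rest of the body shielded by lead, a model of late lung injury, whereas the sham mice had not been exposed. All were young adult mice of 1 inbred strain, kept with a defined flora (gnotobiotic). They came as 2 sets named G1 (36 irradiated, 16 sham) and G3 (32 irradiated, 16 sham), and about equal shares of each set had been bled before at day 2 (36 irradiated, 16 sham) or day 5 (32 irradiated, 16 sham). Only G1 was followed beyond this time. The labels do not say on which day or sequencing run each library was made.

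miRNA are short RNA that bind target transcripts through their seed, bases 2 to 8 of the mature strand, and lower protein output. Plasma carries miRNA from blood cells, endothelium, liver and many other organs, inside vesicles or bound to protein, so a miRNA made almost only in 1 tissue can mark release from that tissue. Plasma pools all these sources, and release from more cells and more release per cell cannot be told apart here. Levels are given as reads per 1000000 reads of that sample after TMM scaling (CPM), and a difference is the log2 fold change of irradiated over sham, with its standard error (SE). A miRNA is called where its adjusted p was under 0.05, by the quasi-likelihood test of edgeR with p-values adjusted over all 483 miRNA tested (Benjamini-Hochberg).

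The mature strands on which the comparison turned are shown from RefSeq (GRCm38.p6), with the seed in capitals. Of the 18 called miRNA and 3 relatives looked up, 18 had an entry. The first group holds the pancreatic acinar miRNA, which lie on the plus strand of chromosome 11 within 17580 bases, miR-216a at chr11:28757018-28757039 and miR-217 at chr11:28763761-28763783, both in an intron of the lincRNA gene Gm12082, and miR-216b at chr11:28746204-28746225 in no other annotated gene. miR-216a-5p and miR-216b-5p share 18 of 22 bases.
miR-216a-5p: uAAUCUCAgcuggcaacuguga
miR-216b-5p: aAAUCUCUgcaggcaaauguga
miR-217-5p: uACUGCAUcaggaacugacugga
The next group comes from the miR-106a to miR-363 cluster on the minus strand of the X chromosome (miR-18b at chrX:52742381-52742403, miR-106a at chrX:52742541-52742563, miR-20b at chrX:52742159-52742181, none within another annotated gene). Its near copies miR-18a and miR-17 from chromosome 14 are set beside it, because miR-18b-5p and miR-18a-5p share the seed and 21 of 23 bases, and miR-106a-5p and miR-17-5p share the seed and 22 of 23 bases.
miR-18b-5p: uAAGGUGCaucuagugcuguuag
miR-18a-5p: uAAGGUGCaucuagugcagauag
miR-106a-5p: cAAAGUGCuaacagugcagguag
miR-17-5p: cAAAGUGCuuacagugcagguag
miR-20b-5p: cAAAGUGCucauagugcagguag
The arms of the gonadal miR-202, chr7:139957732-139957752 for the 5p arm and chr7:139957695-139957716 for the 3p arm on the minus strand, lie in an exon of the lincRNA gene Gm2044 and have different seeds.
miR-202-5p: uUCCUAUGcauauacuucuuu
miR-202-3p: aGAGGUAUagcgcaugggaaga
The miR-125 pair is shown because both members were lower in irradiated than in sham mice and share a seed. miR-125a lies at chr17:17830817-17830840 in an exon of Spaca6, and miR-125b is made from loci at chr9:41581940-41581961 and chr16:77646279-77646300.
miR-125a-5p: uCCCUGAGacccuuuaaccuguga
miR-125b-5p: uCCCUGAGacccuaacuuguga

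The libraries held 439625 to 5985958 reads in irradiated and 481987 to 5515904 reads in sham mice, and 21 of 100 held under 1000000. Irradiated libraries had 439 ± 48.8 miRNA detected (SD, n = 68) and sham libraries 461 ± 46.6 (SD, n = 32), and the 4 checks of depth and composition did not separate the groups (permutation tests of the difference of means with 100000 resamples, two-sided, adjusted p = 0.099 for total reads, miRNA detected and the share of the most abundant miRNA, and adjusted p = 0.895 for log2 of miR-451a over miR-23a-3p, a red blood cell ratio). Some libraries stood apart. Among 4 sham males of set G3 that were bled at day 2 (mice 1049 to 1052), 3 had the lowest median correlation with the other libraries (4 mice: 0.870 to 0.919, median of all 0.949), and their red blood cell ratio was −4.59 to −3.18 against a median of −1.15. Besides, 3 libraries held a miRNA at over 3 times the level of any other library with at least 10 reads, namely irradiated mouse 1090 (miR-7a-5p and miR-9-5p), irradiated mouse 1072 (miR-219a-2-3p) and sham mouse 1051 (miR-122-5p and miR-665-3p). In set G1 the irradiated females 1097 to 1100 had a red blood cell ratio of −2.73 to −2.12, against −0.95 to 1.37 in the other irradiated females of G1. Mouse 1098 among them had the highest miR-216a-5p level (77.2 CPM). Results that changed without mice 1049 to 1052, 1072 or 1090 are given with and without them. Mice 1097 to 1100 had no sample before irradiation, so the changes from each mouse's own earlier sample leave them out. Omitting them was also among the alternatives, and miR-216a-5p was called in 24 of 24 of these. Other results without mice 1097 to 1100 are not given separately.

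At month 1, 18 of 483 miRNA (3.73%) were called, 8 higher (1.66%) and 10 lower (2.07%) in irradiated mice. Without mice 1051, 1072 and 1090 the calls numbered 11, all of them among the 18, with 5 higher and 6 lower. Without sham mice 1049 to 1052 the calls numbered 23, with 12 higher and 11 lower. Among the 11, the higher ones were miR-216a-5p, miR-217-5p, miR-18b-5p, miR-106a-5p and miR-582-5p, and the lower ones miR-202-5p, miR-202-3p, miR-125a-5p, miR-125b-5p, miR-195a-5p and miR-23b-3p. The median difference over all tested miRNA was −0.05, and 40.4% were positive. With DESeq2 size factors in edgeR the split was 11 higher and 6 lower and with TMMwsp scaling also 11 higher and 6 lower, and the median moved to −0.01 and −0.005. In C57Bl/6 samples taken before irradiation 0 of 483 miRNA were called (0%) by edgeR and 0 by limma-voom, with 25 at an unadjusted p under 0.05, against 66 at month 1.

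**Figure D1:**
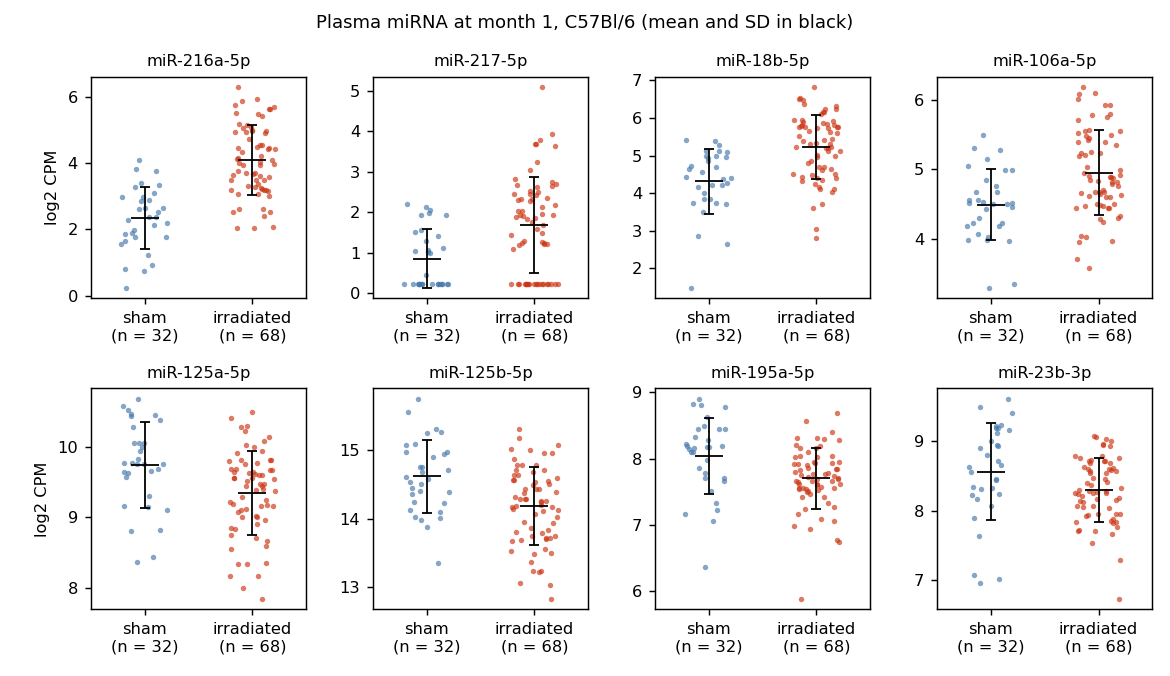
Log2 CPM (y axis) of 8 called miRNA in each month 1 C57Bl/6 plasma sample, sham (blue, n = 32) and irradiated (red, n = 68), with mean and SD in black. The irradiated mean was higher for the upper 4 miRNA and lower for the lower 4, and every pair of groups overlapped.

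The pancreatic acinar miRNA were higher in irradiated plasma. These miRNA are made in the enzyme-secreting cells of the exocrine pancreas and appear in blood when those cells are injured. miR-216a-5p was at a lowest, median and highest of 2.91, 15.0 and 77.2 CPM in irradiated mice and 0, 3.99 and 15.9 CPM in sham mice. Of the irradiated samples, 32 of 68 lay above the highest sham sample and 65 of 68 above the sham median, so the groups overlapped but were shifted throughout. The difference was 2.07 ± 0.27 (log2, SE, adjusted p = 1.38e-11). It was higher in each of the 4 combinations of set and sex, by a mean log2 CPM of 1.54 to 1.90, and leaving out any 1 of the 100 mice in a fit of the month 1 samples alone gave 2.02 to 2.17. These levels rest on few reads, a median of 24 reads in irradiated and 7 reads in sham libraries.

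miR-217-5p, from the same locus, was lower in level. It ran from 0 through a median of 2.42 to 32.9 CPM in irradiated mice and from 0 through 0.095 to 3.41 CPM in sham mice, with 0 reads in 20 of 68 and 16 of 32 libraries. The irradiated group thus reached far above the sham group, with 24 of 68 samples above the highest sham sample. Its difference was 1.83 ± 0.40 (SE, adjusted p = 0.000372). miR-216b-5p was near the limit of detection, with reads in 11 of 68 irradiated samples (57 at 0) and in 1 of 32 sham samples (31 at 0), and had a difference of 1.62 ± 0.54 (SE, adjusted p = 0.0708). All 3 tested members of the acinar list were therefore positive and 2 were called, against 40.4% positive and 3.73% called over all miRNA. The list's median was 1.83 against −0.05 over all miRNA. The 3 members lie at a shared locus, so they are not independent. The list's summed level was 2.94 to 89.2 CPM in irradiated and 0.513 to 18.6 CPM in sham mice. Across irradiated mice miR-216a-5p and miR-217-5p varied together (Pearson's r = 0.49, permutation adjusted p = 0.00028, Spearman's rho = 0.51, permutation adjusted p = 8.0e-05, n = 68, r = 0.56 without the 2 samples farthest from the median of miR-216a-5p). In sham mice the relation was not detected (Pearson's r = 0.19, permutation adjusted p = 0.288, Spearman's rho = 0.16, permutation adjusted p = 0.395, n = 32, r = 0.22 without the 2 farthest). These are among 8 relations computed, and the samples of a pair share library depth. All 8 also pool both sets and both sexes, and were not computed within them. Irradiated females and males had mean log2 CPM of 4.43 and 3.69 for miR-216a-5p, and of 2.00 and 1.32 for miR-217-5p. The relation can therefore hold differences between the sexes as well as between mice.

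Each mouse had also been bled before irradiation, except 4 irradiated females. Against its own earlier sample miR-216a-5p rose by 2.05 ± 1.53 log2 CPM (SD, n = 64) after irradiation, upward in 57 of 64, and by 0.19 ± 1.29 (SD, n = 32) in the sham group, upward in 20 of 32. Irradiated females and irradiated males rose alike in size, by 2.04 ± 1.57 (SD, n = 32) and 2.05 ± 1.51 (SD, n = 32), and the sexes did not differ in the effect by a detectable amount (2.19 ± 0.37 in females, 1.77 ± 0.37 in males, SE, adjusted p of the difference = 0.965). miR-217-5p rose in 42 and fell in 17 of 64 irradiated mice, and rose in 16 and fell in 12 of 32 sham mice. With the mouse as a block in limma-voom its call was lost (1.52 ± 0.49, SE, adjusted p = 0.158). Of the endocrine pancreas list 3 members were tested, miR-7a-5p, miR-7b-5p (−0.66, adjusted p = 0.424) and miR-375-3p. miR-375-3p, of islet and gut endocrine cells, was at 241 to 2002 CPM in irradiated and 216 to 1713 CPM in sham mice, with a difference of 0.23 ± 0.12 (SE, adjusted p = 0.367).

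The miR-106a to miR-363 cluster, an X-linked relative of the growth-promoting miR-17 to miR-92a cluster, had 2 of its 5 tested members called higher in irradiated plasma, against 3.73% called over all miRNA. All 5 differences were positive (40.4% over all miRNA), with a median of 0.52 against −0.05. The 5 members share a cluster and include both arms of miR-363, so they are not independent. miR-18b-5p ran from 5.86 through a median of 38.9 to 112 CPM in irradiated mice and from 1.60 through 20.2 to 41.2 CPM in sham mice. The groups overlapped, although 32 of 68 irradiated samples exceeded every sham sample. The difference was 0.97 ± 0.17 (SE, adjusted p = 1.01e-06), positive in all 4 combinations of set and sex (mean log2 CPM 0.59 to 1.30). miR-106a-5p was at 10.7, 27.8 and 71.4 CPM (lowest, median, highest) in irradiated mice and at 8.58, 21.5 and 43.7 CPM in sham mice. Its shift was smaller, 0.52 ± 0.14 (SE, adjusted p = 0.00928), with 50 of 68 irradiated samples above the sham median. miR-20b-5p (0.41 ± 0.14, SE, adjusted p = 0.0813) and miR-363-3p (1.09 ± 0.42, SE, adjusted p = 0.120) did not pass the test. miR-20b-5p passed it with DESeq2 size factors in edgeR, at 0.45 and an adjusted p of 0.0343.

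The near copies from chromosome 14 were more abundant and showed no detectable shift. miR-18a-5p had a median of 102 CPM in irradiated and 90.1 CPM in sham mice (0.19 ± 0.13, SE, adjusted p = 0.497), and miR-17-5p a median of 327 CPM and 320 CPM (0.04 ± 0.14, SE, adjusted p = 0.949). Of the 9 tested members of the miR-17 to miR-92a cluster 0 were called, with 4 positive (40.4% over all miRNA). Their median was −0.02, which turned to 0.03 with DESeq2 size factors in edgeR and 0.02 with TMMwsp scaling. Of the 6 members of the miR-106b to miR-25 cluster 0 were called, with a median of 0.02 (−0.04 without sham mice 1049 to 1052). How reads of 1-base neighbours were shared out in counting is not given in the sources used here, so the levels of miR-106a-5p and miR-17-5p are uncertain against each other.

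Compared with each mouse's own earlier sample, miR-18b-5p changed by 0.17 ± 1.07 log2 CPM (SD, n = 64) in irradiated mice and by −0.53 ± 1.15 (SD, n = 32) in sham mice. In females the mean changes were 0.50 ± 0.86 (SD, n = 32, up in 24) after irradiation and −0.27 ± 1.12 (SD, n = 16) in the sham group. In males both means were negative, −0.16 ± 1.17 (SD, n = 32, down in 18) and −0.78 ± 1.15 (SD, n = 16). For miR-106a-5p the mean changes were 0.08 ± 1.00 (SD, n = 64) and −0.17 ± 0.82 (SD, n = 32). miR-363-3p was lower at month 1 than before in both groups, with a mean change of −0.58 ± 1.72 (SD, n = 64) after irradiation and −1.36 ± 1.47 (SD, n = 32) in the sham group. miR-106a-5p and miR-20b-5p varied together across samples of either group (irradiated: Pearson's r = 0.46, permutation adjusted p = 0.00032, Spearman's rho = 0.46, permutation adjusted p = 0.000267, n = 68, r = 0.42 without the 2 farthest samples, and sham: Pearson's r = 0.61, permutation adjusted p = 0.00032, Spearman's rho = 0.60, permutation adjusted p = 0.00066, n = 32, r = 0.55 without them). For miR-18b-5p and miR-106a-5p no relation was detected (irradiated: Pearson's r = 0.20, permutation adjusted p = 0.138, Spearman's rho = 0.22, permutation adjusted p = 0.0979, n = 68, r = 0.23 without the 2 farthest samples, and sham: Pearson's r = 0.28, permutation adjusted p = 0.138, Spearman's rho = 0.31, permutation adjusted p = 0.09998, n = 32, r = 0.33 without them).

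Both arms of miR-202, a miRNA known from ovary and testis, were lower in irradiated plasma, and the fall was seen in females. In females miR-202-5p was at 7.46, 21.6 and 64.9 CPM (lowest, median, highest) in the 16 sham mice and at 0, 0.365 and 12.2 CPM in the 36 irradiated mice, of which 17 had no read. Among males the levels were near 0 in either group, with 11 of 16 sham and 18 of 32 irradiated libraries at 0 reads and no library above 5.81 CPM. miR-202-3p followed at lower levels, with a median of 3.31 CPM in sham females, and 33 of 36 irradiated females at 0 reads. The effect on miR-202-5p was −3.99 ± 0.41 (SE, adjusted p = 1.60e-18) in females and 0.76 ± 0.56 (SE, adjusted p = 0.731) in males. The effect in females minus that in males was −4.75 ± 0.72 (SE, adjusted p = 4.00e-08) for miR-202-5p and −3.25 ± 0.82 (SE, adjusted p = 0.013) for miR-202-3p. Because sham males were already near 0, a fall in males could not have been seen. This test therefore cannot tell whether the response itself differed between the sexes.

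**Figure D2:**
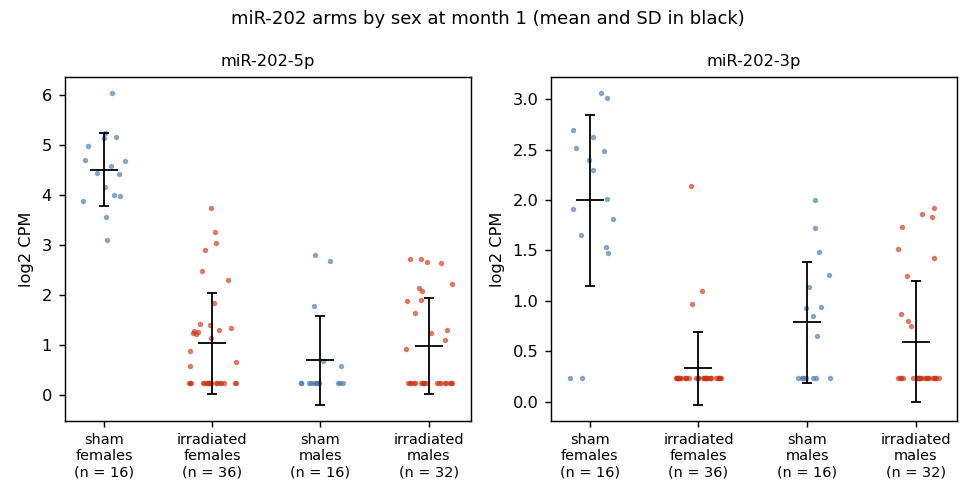
Log2 CPM (y axis) of both miR-202 arms in sham (blue) and irradiated (red) samples of each sex at month 1, with mean and SD in black. Samples without a read form the row near 0.23, and of the 36 irradiated females 17 (5p) and 33 (3p) lie there.

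The same females showed the change against their own earlier samples. miR-202-5p went from 4.85 ± 1.17 to 1.03 ± 1.02 log2 CPM (SD, n = 32) in irradiated females, lower in 31 of 32 and higher in 0. In sham females it went from 5.30 ± 0.64 to 4.50 ± 0.73 (SD, n = 16), lower in 14 of 16. Irradiated males had 0.65 ± 0.66 before and 0.98 ± 0.95 at month 1 (SD, n = 32). The sham mean was thus also lower than before, by less. Over both sexes, with the mouse as a block in limma-voom, miR-202-5p was not called (−1.56 ± 0.48, SE, adjusted p = 0.109). Because the pooled difference of −3.10 ± 0.48 (SE, adjusted p = 3.49e-08) averages both sexes, it states the size for neither.

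A group of abundant miRNA was modestly lower in irradiated mice. miR-125b-5p, a miRNA of fibroblasts, stem cells and many solid tissues, ran from 7235 through 19532 to 40839 CPM in irradiated mice and from 10411 through 24711 to 55354 CPM in sham mice. miR-125a-5p, with the same seed, ran from 227 through 703 to 1442 CPM and from 329 through 871 to 1656 CPM. Most samples of both groups lay in a common range, and the differences were −0.42 ± 0.11 (SE, adjusted p = 0.00443) and −0.40 ± 0.10 (SE, adjusted p = 0.00383). The pair varied together among irradiated (Pearson's r = 0.67, permutation adjusted p = 8.0e-05, Spearman's rho = 0.64, permutation adjusted p = 8.0e-05, n = 68, r = 0.62 without the 2 farthest samples) and sham mice (Pearson's r = 0.49, permutation adjusted p = 0.00707, Spearman's rho = 0.45, permutation adjusted p = 0.0163, n = 32, r = 0.40 without them). These relations pool sets and sexes. Irradiated G1 females had the lowest mean log2 CPM of both miRNA (8.83 for miR-125a-5p and 13.7 for miR-125b-5p), so differences between sets and sexes can enter. miR-195a-5p, a relative of miR-16 that restrains the cell cycle, was at a median of 208 CPM in irradiated and 286 CPM in sham mice (−0.37 ± 0.11, SE, adjusted p = 0.0140), with 59 of 68 irradiated samples below the sham median. miR-23b-3p was at medians of 311 and 399 CPM (−0.34 ± 0.10, SE, adjusted p = 0.0371).

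Several of these calls depended on the samples fitted and on the scale. By edgeR in the month 1 samples alone, miR-125a-5p (−0.38 ± 0.12, SE, adjusted p = 0.0661) and miR-23b-3p (−0.30 ± 0.11, SE, adjusted p = 0.129) were not called. In that fit miR-214-3p, miR-320-3p and miR-574-3p were not called either (adjusted p = 0.0672, 0.106 and 0.0659). There miR-125b-5p (adjusted p = 0.0355) and miR-195a-5p (adjusted p = 0.0421) stayed called. With DESeq2 size factors in edgeR, with TMMwsp scaling and by DESeq2, miR-195a-5p (−0.32 in each) and miR-23b-3p (−0.27 to −0.28) kept their direction but were not called, and neither were miR-214-3p and miR-320-3p. Read against the earlier samples, miR-125b-5p rose in both groups between the bleeds, by 0.42 ± 0.76 (SD, n = 64) after irradiation and 0.79 ± 0.67 log2 CPM (SD, n = 32) in the sham group, and miR-125a-5p rose by 0.10 ± 0.75 and 0.48 ± 0.75 (SD, same mice). miR-195a-5p changed by −0.32 ± 0.73 (SD, n = 64) in irradiated mice, down in 46 of 64, and by 0.02 ± 0.61 (SD, n = 32) in sham mice. On this within-mouse measure none of these 3 was called (limma-voom with the mouse as a block, adjusted p = 0.498 for each).

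miR-214-3p, of stromal fibroblasts, had medians of 24.5 CPM in irradiated and 34.8 CPM in sham mice and a difference of −0.58 ± 0.18 (SE, adjusted p = 0.0362). All 6 tested members of the stromal list were negative, with a median of −0.43 (−0.38 with DESeq2 size factors in edgeR), and 1 was called. Over all miRNA 40.4% were positive and 3.73% called. The list holds the 5p and 3p arms of the same miRNA, so its members are not independent. The list's summed level was 1575 to 10169 CPM in irradiated and 2217 to 8917 CPM in sham mice. miR-214-3p was no longer called without sham mouse 1051 (−0.49 ± 0.18, SE, adjusted p = 0.109), and neither was miR-320-3p (−0.24 ± 0.07, SE, adjusted p = 0.0390 with all mice, and −0.19 ± 0.08, SE, adjusted p = 0.152 without that mouse). miR-320-3p also missed the threshold without irradiated mouse 1072 (−0.23 ± 0.08, SE, adjusted p = 0.0558).

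miR-582-5p was called at a very low level. It had no read in 53 of 68 irradiated and 30 of 32 sham libraries, and reached 6.87 CPM and 1.03 CPM. All the higher values were thus in irradiated mice, 14 of them above the highest sham sample. That sample held 2 reads, a CPM that very few reads can exceed in a shallow library. Under 1000000 reads were held by 16 of 68 irradiated and 5 of 32 sham libraries, so depth can enter this count. The difference of miR-582-5p was 2.21 ± 0.57 (SE, adjusted p = 0.00460), and by limma-voom 0.84 and not called (adjusted p = 0.126).

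**Figure D3:**
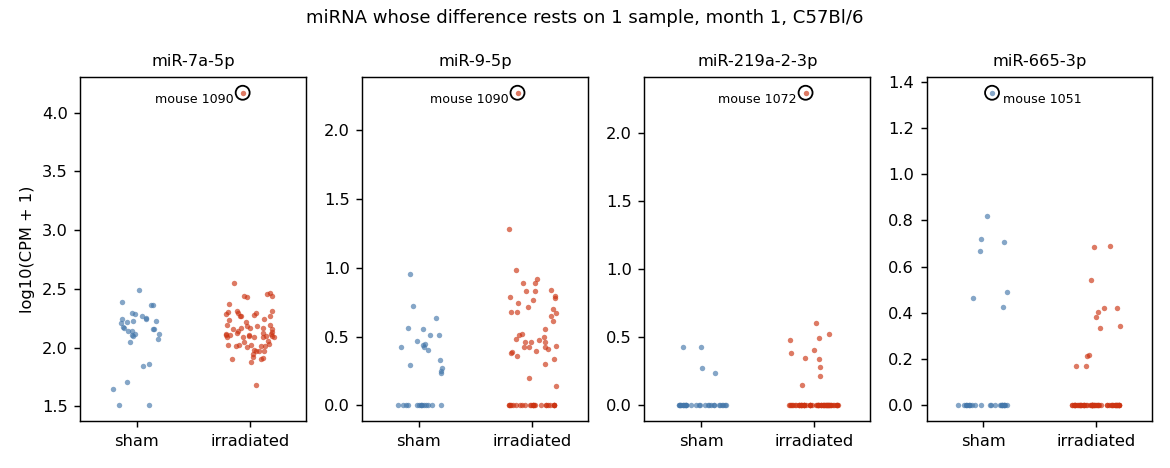
Level of 4 called miRNA, as log10(CPM + 1) (y axis), in each sham (blue, n = 32) and irradiated (red, n = 68) sample, with 1 circled sample per panel. The circled samples are at 14779 CPM (miR-7a-5p), 187 CPM (miR-9-5p), 197 CPM (miR-219a-2-3p) and 21.5 CPM (miR-665-3p), above all others.

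The calls of several other miRNA rested on single animals. miR-7a-5p, of endocrine and neural cells, was at 14779 CPM (36348 reads) in irradiated mouse 1090 and at no more than 353 CPM in the other irradiated mice. Its median was 131 CPM in irradiated and 145 CPM in sham mice, so the typical sample was not higher. The difference of 1.32 ± 0.18 (SE, adjusted p = 3.65e-11) became 0.01 ± 0.12 (SE, adjusted p = 0.987) without that mouse. The same animal had 105 CPM before irradiation and 159 CPM at day 5. In the same library miR-9-5p, a neural miRNA, was at 187 CPM against at most 18.1 CPM elsewhere, and at 0 reads in this animal at both earlier times. Its difference fell from 2.04 ± 0.47 (SE, adjusted p = 0.00117) to 0.89 ± 0.45 (SE, adjusted p = 0.334) without that mouse.

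miR-219a-2-3p, known from oligodendrocytes, showed the highest fold of all. It was at 197 CPM (285 reads) in irradiated mouse 1072 and at or below 3.04 CPM in all other month 1 samples, 56 of 68 irradiated and 28 of 32 sham libraries having no read. The difference of 3.87 ± 0.61 (SE, adjusted p = 5.08e-08) dropped to 0.73 ± 0.50 (SE, adjusted p = 0.543) without that mouse, which had 0 reads of it before irradiation and at day 5. Of the 11 tested members of the neural list, 2 were called with these mice and 0 without mice 1051, 1072 and 1090, with medians of 0.04 and 0.05. Over all miRNA 3.73% were called with all mice.

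Sham mouse 1051 carried a liver signal. Its miR-122-5p, the dominant hepatocyte miRNA, stood at 65773 CPM, with 12869 CPM in the next sham sample and at most 12540 CPM in irradiated mice. miR-192-5p, of liver and gut epithelium, was at 37686 CPM there and at most 14440 CPM in the rest. The same mouse had miR-122-5p at 2039 CPM before the experiment and 22778 CPM at day 2, and miR-192-5p at 3828 CPM and 12062 CPM, so the excess was already present at the earlier bleed after sham treatment. Over all mice miR-122-5p had a higher median in irradiated (3060 CPM) than in sham mice (2496 CPM) but a fitted difference of −0.55 ± 0.22 (SE, adjusted p = 0.141), which became 0.06 ± 0.22 (SE, adjusted p = 0.956) without mouse 1051. The called fall of miR-665-3p (−1.78 ± 0.45, SE, adjusted p = 0.00371) became −0.92 ± 0.47 (SE, adjusted p = 0.374), with 53 reads in that mouse and 0 reads in 24 of 32 sham libraries. That of miR-574-3p (−0.42 ± 0.10, SE, adjusted p = 0.00292), at medians of 646 CPM in irradiated and 781 CPM in sham mice and 4201 CPM in mouse 1051, became −0.26 ± 0.10 (SE, adjusted p = 0.149). Without all 4 sham mice 1049 to 1052 the differences were −0.03 for miR-574-3p, −0.19 for miR-665-3p, −0.35 for miR-214-3p and −0.11 for miR-320-3p (adjusted p = 0.949, 0.936, 0.389 and 0.587). In the same setting miR-192-5p (0.43, adjusted p = 0.0245), miR-802-5p (0.95, adjusted p = 0.00639) and miR-34a-5p (0.52, adjusted p = 0.0196) were called higher.

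**Figure D4:**
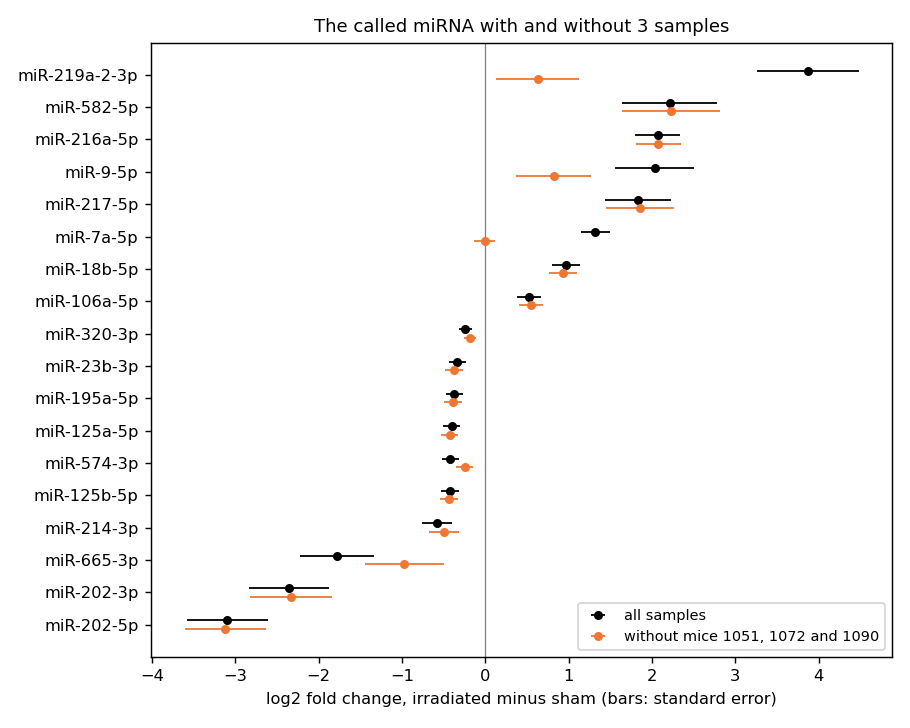
Log2 fold change of irradiated over sham (x axis, bars are SE) for the 18 called miRNA, with all samples (black) and without mice 1051, 1072 and 1090 (orange). The values of miR-7a-5p (1.32 and −0.009), miR-219a-2-3p (3.87 and 0.63), miR-9-5p (2.04 and 0.82) and miR-665-3p (−1.78 and −0.97) move toward 0, and those of miR-216a-5p and miR-202-5p stay in place.

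Blood cell and endothelial miRNA showed small differences at this time. Of the 6 erythroid miRNA 0 were called, with a median of 0.08 (−0.00095 without sham mice 1049 to 1052), 4 positive with TMM, 6 with DESeq2 size factors in edgeR and 3 without those mice. Over all miRNA 40.4%, 48.0% and 45.3% were positive in these settings. Of the 5 tested lymphocyte miRNA 0 were called, with a median of 0.02 (−0.10 without those mice), and of the 6 myeloid miRNA 0, with a median of 0.07. The lymphocyte miR-150-5p was at 3592 to 19125 CPM in irradiated and 3397 to 18426 CPM in sham mice (−0.05 ± 0.11, SE, adjusted p = 0.937), and miR-155-5p, of activated leukocytes, at 24.1 to 196 CPM and 15.8 to 152 CPM (0.02 ± 0.14, SE, adjusted p = 0.964). miR-142a-3p, common to all leukocytes, differed by 0.17 ± 0.18 (SE, adjusted p = 0.787). Endothelial miR-126a-5p was near the threshold. Its level was 11456, 21345 and 33192 CPM (lowest, median, highest) in irradiated and 9397, 16780 and 27527 CPM in sham mice, with 59 of 68 irradiated samples above the sham median. The difference was 0.27 ± 0.09 (SE, adjusted p = 0.0813), and 0.32 with an adjusted p of 0.0264 with DESeq2 size factors in edgeR.

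The miR-34 family, targets of p53 in the DNA damage response, gave 0 calls among 6 members, 4 of them positive, with a median of 0.17 (0.26 with 1 call without sham mice 1049 to 1052). Over all miRNA 3.73% were called and 40.4% were positive, or 45.3% positive without those mice. miR-34a-5p was at 106, 265 and 694 CPM (lowest, median, highest) in irradiated mice and 85.5, 199 and 745 CPM in sham mice, and the difference of 0.43 ± 0.14 (SE) had an adjusted p of 0.0708. It was called in 12 of 25 alternatives, for example with DESeq2 size factors in edgeR (0.46, adjusted p = 0.0387). Its level had risen in both groups since before irradiation, by 1.62 ± 0.71 log2 CPM (SD, n = 64) in irradiated mice, up in 63 of 64, and by 1.06 ± 0.82 (SD, n = 32) in sham mice, up in 29 of 32. miR-34c-3p differed by 0.25 ± 0.17 (SE, adjusted p = 0.561). miR-335-5p (0.29 ± 0.16, SE, adjusted p = 0.384) and the liver and islet miR-802-5p (0.66 ± 0.24, SE, adjusted p = 0.0927, medians of 12.8 and 6.39 CPM) were also not called.

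Among the other lists the imprinted Dlk1-Dio3 cluster on chromosome 12 had 6 of 36 tested members positive, against 40.4% over all miRNA, and a median of −0.29 against −0.05 (−0.24 with DESeq2 size factors in edgeR, −0.26 without mice 1051, 1072 and 1090). Only miR-665-3p of it was called, and without those mice none was. Members of this cluster lie at a shared locus and include both arms of some miRNA, so they are not independent. The 4 tested skeletal muscle miRNA were negative with 0 calls (median −0.37), at summed levels that spanned 346 to 88908 CPM in irradiated and 251 to 80488 CPM in sham mice. The epithelial miR-200 family had 7 of 9 members negative, a median of −0.16 and 0 calls. No member was called in the liver (2 tested, median −0.89, and −0.24 without the 3 mice), liver and gut epithelium (6, −0.05, and 0.24), endothelium (2, 0.20, and 0.11 without sham mice 1049 to 1052), cardiac muscle (3, 0.19, and 0.44 without the 3 mice), skin epithelium (2, −0.06, and 0.04 without sham mice 1049 to 1052), smooth muscle (3, 0.05), fibrosis (6, −0.04, and 0.005 with DESeq2 size factors in edgeR), X-linked testis (4, 0.01, and −0.08 without the 3 mice) or let-7 (9, 0.08, and −0.05 without sham mice 1049 to 1052) lists. Without sham mice 1049 to 1052 the liver and gut list had 2 of 6 called and a median of 0.33. In that setting 5 of its 6 members were positive, against 45.3% over all miRNA. The islet and endocrine list had 1 of 3 called, miR-7a-5p (3.73% called over all miRNA), with a median of 0.23 and of −0.009 without the 3 mice.

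When the sexes were fitted apart, 19 miRNA (3.93%) were called in females, 8 higher and 11 lower, and 8 (1.66%) in males, 4 higher and 4 lower. Without mice 1051, 1072 and 1090 the counts were 17 and 1, the latter being miR-216a-5p. The difference between the sexes was called for 3 miRNA (0.621%), both arms of miR-202 and miR-7a-5p (1.70 ± 0.30, SE, adjusted p = 3.05e-06), and without those mice for the miR-202 arms alone. In females miR-216b-5p (3.04 ± 0.84, SE, adjusted p = 0.0177), miR-34a-5p (0.65 ± 0.20, SE, adjusted p = 0.0354) and miR-99a-5p (−0.76 ± 0.23, SE, adjusted p = 0.0354) were also called, but their differences from males were not (adjusted p = 0.389, 0.782 and 0.762). miR-126a-5p was called in males (0.47 ± 0.13, SE, adjusted p = 0.0198), with no call of the difference between the sexes (adjusted p = 0.590).

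Fitted by set, 12 miRNA (2.48%) were called in G1 and 9 (1.86%) in G3, or 12 and 4 without the 3 mice. miR-216a-5p was of nearly equal size in both (2.11 ± 0.37 in G1 and 2.03 ± 0.37 in G3, SE), as was miR-18b-5p (0.96 ± 0.23 and 0.96 ± 0.23, SE). The miR-125 pair was called in G1 only (miR-125b-5p −0.60, adjusted p = 0.00510, against −0.24 and adjusted p = 0.629 in G3), but the difference between sets was not called for it (adjusted p = 0.842). The only called set difference (1 of 483, 0.207%) was miR-7a-5p, at 2.24 ± 0.31 (SE, adjusted p = 9.39e-10), and it was not called without the 3 mice, when 0 were. In G3 the 16 irradiated males and 8 sham males gave a miR-125a-5p difference of 0.09 in mean log2 CPM, against −0.70 in G1 females. This stratum holds the 4 sham males that stood apart, and its value without them was not computed. In the fit of the month 1 samples alone the miR-125a-5p difference was −0.38 with all mice. It was −0.44 without mouse 1051, 1 of those 4.

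With the mouse as a fixed block and each animal's change from its earlier sample as the measure, 5 miRNA (1.04%) were called by limma-voom. These were miR-216a-5p (2.12 ± 0.40, SE, adjusted p = 0.000245), miR-215-5p (0.56 ± 0.14, SE, adjusted p = 0.0449), miR-126a-5p (0.41 ± 0.11, SE, adjusted p = 0.0490), miR-34a-5p (0.58 ± 0.16, SE, adjusted p = 0.0490) and miR-202-3p (−1.55 ± 0.43, SE, adjusted p = 0.0490). miR-18b-5p was at 0.77 ± 0.23 (SE, adjusted p = 0.0956), and miR-125b-5p at −0.31 ± 0.16 (SE, adjusted p = 0.498). miR-215-5p, of liver and intestine, was named here after its values were seen. Values of this fit without mouse 1051 are not given here. By edgeR in the month 1 samples alone miR-126a-5p was called (0.29 ± 0.07, SE, adjusted p = 0.00889). It was not called there without mouse 1051 (0.23, adjusted p = 0.0817).

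In C3H mice at month 1, 16 of 483 miRNA (3.31%) were called from 90 samples, and of the 18 called in C57Bl/6 only miR-18b-5p and miR-106a-5p were among them. The difference between strains was called for 6 miRNA (1.24%), and for 3 without mice 1051, 1072 and 1090. Those 3 were miR-216a-5p (2.07 ± 0.27 in C57Bl/6, −0.11 ± 0.24 in C3H, SE, adjusted p of the difference = 2.70e-07), miR-122-5p (−0.55 ± 0.22 and 1.33 ± 0.24, SE, adjusted p = 1.63e-06 with all mice and 0.00881 without the 3, at −1.32 ± 0.32) and miR-150-5p (−0.05 ± 0.11 and −0.62 ± 0.11, SE, adjusted p = 0.0166). miR-18b-5p was at 0.97 ± 0.17 in C57Bl/6 and 1.46 ± 0.17 in C3H (SE), a difference that was not called (adjusted p = 0.583).

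Set against the neighbouring times in C57Bl/6, the effect at month 1 differed from that at day 5 for 49 miRNA (10.1%) and from that at month 2 for 2 miRNA (0.414%). Among miRNA of leukocytes, 3 named for their small adjusted p were lower than sham at day 5 and closer to it at month 1, with miR-155-5p at −1.41 ± 0.19 and 0.02 ± 0.14 (SE, adjusted p of the difference = 9.85e-07), miR-150-5p at −1.10 ± 0.15 and −0.05 ± 0.11 (SE, adjusted p = 2.01e-06) and miR-142a-3p at −1.54 ± 0.25 and 0.17 ± 0.18 (SE, adjusted p = 6.11e-06). The other arm, miR-142a-5p, was not called at day 5 (−0.49 ± 0.22, SE, adjusted p = 0.116). let-7a-5p went the same way, from −1.50 ± 0.23 to 0.17 ± 0.17 (SE, adjusted p = 2.01e-06). miR-106a-5p changed side, from −0.86 ± 0.20 to 0.52 ± 0.14 (SE, adjusted p = 3.33e-06), whereas miR-34a-5p (1.70 ± 0.22 to 0.43 ± 0.14, SE, adjusted p = 3.48e-05) and miR-375-3p (1.22 ± 0.18 to 0.23 ± 0.12, SE, adjusted p = 0.000121) came down. Without the 3 mice 44 differences from day 5 and 0 from month 2 were called, the 2 lost at month 2 being miR-122-5p (1.91 ± 0.40, SE, adjusted p = 0.00121 with all mice) and miR-7a-5p (−1.27 ± 0.28, SE, adjusted p = 0.00174).

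**Figure D5:**
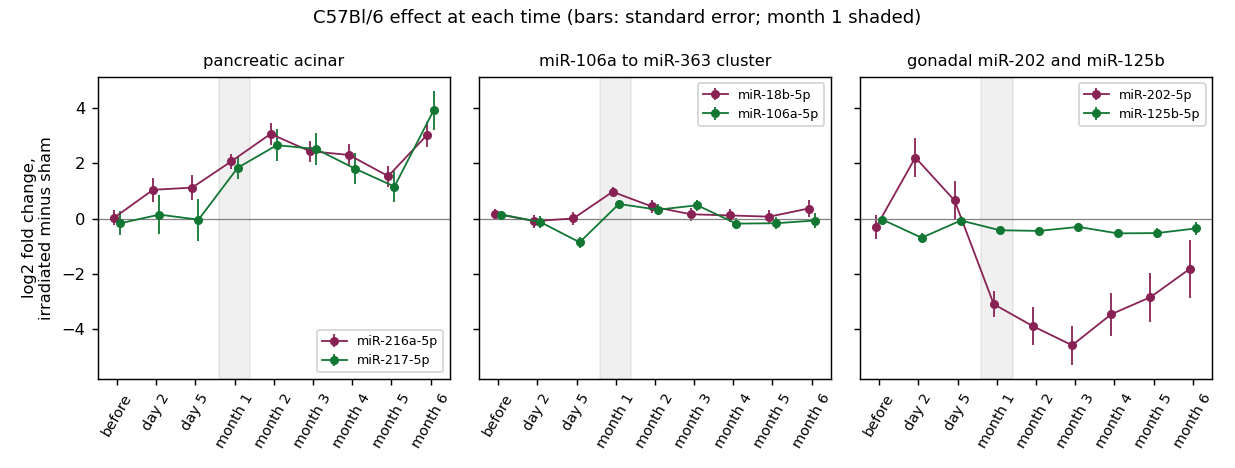
Log2 fold change of irradiated over sham C57Bl/6 mice (y axis, bars are SE) for 6 miRNA at each bleed (x axis, month 1 shaded). At month 1 the values are 2.07 (miR-216a-5p), 1.83 (miR-217-5p), 0.97 (miR-18b-5p), 0.52 (miR-106a-5p), −3.10 (miR-202-5p) and −0.42 (miR-125b-5p), and only G1 mice were sampled after it.

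Placed along all bleeds, the called miRNA took different courses. miR-216a-5p was at 0.02 ± 0.27 (SE) before irradiation and at 1.04 ± 0.42 and 1.12 ± 0.44 at days 2 and 5 without a call (adjusted p = 0.117 and 0.0691), was first called at month 1, and was called at every later month (1.53 to 3.06). Day 5 had 48 samples against 100 at month 1, so the first call does not date the start of the rise. miR-217-5p ran along with miR-216a-5p from month 1, at 1.16 ± 0.55 (SE, adjusted p = 0.277) at month 5. miR-18b-5p was called at month 1 alone, with 0.002 ± 0.23 (SE) at day 5 and 0.44 ± 0.23 at month 2. miR-202-5p was higher at day 2 (2.204 ± 0.70, SE, adjusted p = 0.0305), not called at day 5 (0.65 ± 0.71, SE, adjusted p = 0.603) and lower from month 1 to month 5. miR-125b-5p was lower at day 2 (−0.69 ± 0.16, SE, adjusted p = 0.000454), near 0 at day 5 (−0.07 ± 0.16, SE, adjusted p = 0.854) and lower again at month 1.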

How the data were processed

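Plasma RNA was isolated with a biofluid kit and sequenced as QIAseq miRNA libraries on a NextSeq 550. The authors aligned the reads to mm10 with a BaseSpace small RNA workflow and deposited raw counts of reads per mature miRNA (1915 miRNA, 899 samples). They left out hemolysed plasma, libraries dominated by adapter dimer and runs with few reads. Whether molecular identifiers were collapsed is not given in the sources used here, so counting error can be larger than the counts imply.

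Samples were grouped by strain, treatment and time from the labels. miRNA were kept by edgeR's filterByExpr over 32 groups (483 of 1915, 99.99% of reads), scaled by TMM and fitted with edgeR 4.0.16 (glmQLFit, glmQLFTest, R 4.3.3) with 1 mean per group over all 899 samples (867 residual degrees of freedom). Adjusted p under 0.05 was called. The SE was derived from the fold change and the root of F. Log2 CPM used a prior count of 2. Change from a mouse's own earlier sample used limma 3.58.1 with voom. Sex, set, strain and time differences were interaction contrasts. Alternatives used DESeq2 1.42.0, limma-voom, other scalings, filters and sample subsets. The script was tested on simulated data. No 2 samples held identical values (0 of 899). GEO labels name 1 mouse per sample, but mice recur across bleeds, and the main fit treated all 899 samples as independent. Its p-values therefore do not measure the spread between the 100 month 1 mice alone. The SE of miR-7a-5p was 0.18 in the main fit and 0.38 in the month 1 samples alone. That of miR-216a-5p was 0.27 and 0.26.

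Same-mouse samples before irradiation and at month 1 deviated together by a mean correlation of 0.132 over 133 miRNA and 96 mice (different mice −0.0014), and 1 number marks 1 mouse across times. Irradiated and sham mice share no number.

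Named were all called miRNA, plasma miRNA named by the study, called and up to 2 most abundant members of each tissue or cluster list, and up to 5 called miRNA per difference of effects. Further members of the listed clusters and families, and the near copies miR-17-5p and miR-18a-5p, were chosen after their values were seen. The samples, miRNA lists and alternatives were chosen with earlier results of these data known.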

Additional observations from a re-analysis of the deposited data

Results flagged for a closer look

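Several effects at month 1 differed between groups of mice by a test of the difference itself (quasi-likelihood test of edgeR). Between females and males these were miR-202-5p (−4.75), miR-202-3p (−3.25) and miR-7a-5p (1.70), in log2 units, and between sets G3 and G1 miR-7a-5p (2.24). Between C57Bl/6 and C3H they were miR-216a-5p (2.18), miR-7a-5p (1.44), miR-122-5p (−1.88), miR-219a-2-3p (3.82), miR-150-5p (0.57) and miR-122-3p (−2.58). Against day 5 the 5 with the smallest adjusted p were miR-155-5p (1.43), let-7a-5p (1.67), miR-150-5p (1.05), miR-106a-5p (1.38) and miR-142a-3p (1.72), and month 2 differed from month 1 for miR-122-5p (1.91) and miR-7a-5p (−1.27). All those of miR-7a-5p, the strain differences of miR-219a-2-3p and miR-122-3p, and the month 2 difference of miR-122-5p were lost without mice 1051, 1072 and 1090. For the miR-202 arms sham males were near the limit of detection. A fall in males could therefore not have been seen.

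Among the sham groups of 8 mice (by set and sex), 11 of 68 groups held a mouse far from the other mice by Dixon's criterion. Chance gives about 1 in 20 for continuous values. That rate does not apply to the 7 groups in which 1 mouse had reads and the others none, since the ratio is then at its maximum. The lowest samples were miR-216a-5p in mouse 1088 (log2 CPM 1.66), miR-18b-5p in mouse 1039 (1.47) and miR-195a-5p in mice 1027 (7.06) and 1074 (7.22). The highest, at 1 to 9 reads among samples at 0, were miR-202-5p in mouse 1014 (0.68), miR-219a-2-3p in mice 1026 (1.04) and 1014 (1.52), miR-665-3p in mice 1002 (1.71) and 1074 (1.51), and miR-582-5p in mice 1015 (1.14) and 1052 (0.85).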

How the results depend on the processing

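For the 33 miRNA followed one by one, 809 values under 25 alternatives kept direction and side of the threshold in 614, lost a call in 125, gained one in 50 and changed sign in 20. miR-216a-5p was called in 24 of 24 alternatives, miR-18b-5p in 23 of 24 and miR-217-5p in 22 of 24. Called least often of the 18 were miR-320-3p (7 of 25), miR-214-3p (8 of 24) and miR-23b-3p (10 of 25). Next came miR-574-3p (13 of 25), miR-665-3p (13 of 24) and miR-195a-5p (15 of 25). The others were called in 17 to 23 alternatives. The 18 calls at month 1 became 10 by limma-voom, 10 when limma-voom took each mouse for a replicate block (consensus correlation 0.0434), 5 as change from the own sample with the mouse as a fixed replicate block, 75 without a filter on low counts, 9 without the females of G1 (fit of month 1 samples alone) and 11 without mice 1051, 1072 and 1090. Leaving out 1 mouse at a time gave 13 to 25. The 6 strain differences became 2 by limma-voom, 3 with set and sex as a block and 3 without those mice. The 49 differences from day 5 became 30 by limma-voom and 32 with the replicate block. The 2 differences from month 2 became 0 by limma-voom, 1 with the replicate block and 0 without the 3 mice. The 1 set difference became 0 by limma-voom, 0 in the month 1 samples alone and 0 without the 3 mice.

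Changes of sign are given in log2 units. miR-122-5p was 0.013 by limma-voom, 0.012 with the replicate block, 0.18 as own change, 0.052 with quantile-normalized values, 0.043 without males of G3, 0.056 without mouse 1051, 0.011 without the 3 mice and 0.12 without sham mice 1049 to 1052. miR-155-5p was −0.057 in libraries of at least 1000000 reads, −0.075 without males of G3, −0.0090 without mouse 1051, −0.0070 without the 3 mice and −0.11 without sham mice 1049 to 1052. miR-150-5p was 0.023 without females of G1 and 0.040 without females of G3, miR-192-5p −0.011 without females of G1, miR-665-3p 0.60 without males of G3, miR-223-3p 0.044 without males of G3 and 0.083 without sham mice 1049 to 1052, and miR-7a-5p −0.0091 without the 3 mice. The red blood cell ratio difference was −0.34 without sham mice 1049 to 1052. The settings that name single mice, and the bleed term, were chosen after seeing the data. Causes were not tested. Depth limits the low miRNA, such as miR-217-5p, miR-216b-5p, miR-582-5p and miR-202-3p, which had a median of at most 4 reads in irradiated libraries.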
